A study of Mus musculus with 24 samples.

Results

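The 10 genes described here encode peptide precursors of retinal neurons. Most are neuropeptide precursors (Cartpt, Vip, Penk, Npy, Tac1, Sst, Adcyap1 and Gal), and the other two, Vgf and Scg2, are granins, the proteins packed with peptides into dense-core granules. They were taken by gene symbol from a table of 19018 genes, and all 10 were found and passed the filter on low counts.

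The table held RNA-seq of 24 whole eyes of male CBA/N mice, an inbred strain that is able to make melatonin. The mice entered the experiment at 10 weeks of age and spent 4 weeks, up to an age of 14 weeks, in LW or SC. LW was a summer-like room with 16 h of light and 8 h of darkness at 27 °C. SC was a winter-like room with 8 h of light and 16 h of darkness at 10 °C. Day length and temperature changed together, so their effects cannot be told apart. Eyes were collected every 4 h from 2 h to 22 h of the day, 2 eyes for each of the 6 times in each condition, which gave 12 LW and 12 SC eyes. By the light schedule of the study, the LW eyes of 6, 10, 14 and 18 h and the SC eyes of 10 and 14 h were collected with lights on. Nothing in the labels tells whether the 2 eyes of a time were those of 1 mouse or of separate mice, and p-values therefore measure the spread between eyes, which may be partly technical.

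A neuropeptide is cut from a larger precursor by prohormone convertases inside dense-core granules, amidated or trimmed there, and released more slowly and diffusely than a classical transmitter. In the retina most peptides are made by amacrine cells, the inhibitory interneurons of the inner retina, and some by ganglion cells, whose axons form the optic nerve. Peptides of this kind are known as modulators of retinal signalling and, in the case of PACAP, as co-transmitters of the ganglion cells that report light to the circadian clock.

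Expected counts summed to between 19543401 and 28859071 in the 12 LW libraries and between 20164885 and 28447184 in the 12 SC libraries. All values below are scaled counts, meaning expected counts brought to the mean library size. The tissue was the whole eye, and rod, lens and corneal transcripts were abundant in every library, while amacrine and ganglion cell markers were also present in every library. The summed level of 10 amacrine markers lay between 21121 and 23597 in LW eyes and between 20843 and 22520 in SC eyes, and 1 of the 10 (Calb2) was higher in LW. The summed level of 12 ganglion cell markers lay between 10519 and 12106 in LW eyes and between 10776 and 11688 in SC eyes, and 1 of the 12 (Nefh) was higher in LW. Of other retinal cells, 3 of 7 rod markers (Nrl, Pde6b and Sag) and 2 of 6 bipolar cell markers were higher in LW. Among outer tissues, 1 of 6 muscle markers was lower in LW, 4 of 6 lens fibre markers and 2 of 8 scleral markers were higher in LW, and 5 of 6 corneal and 3 of 6 pigment epithelium markers were lower in LW. In a whole eye, fewer cells of a type and less RNA per cell cannot be told apart. The liver transcript Alb reached 1807 in the second SC eye of 6 h and 236 in the second SC eye of 10 h, against at most 7.93 in the other 22 libraries.

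The members are spread over the genome. In GRCm38.p6 coordinates, Cartpt spans chr13:99898483-99910179, Vip chr10:5639193-5647617, Penk chr4:4133536-4138815, Npy chr6:49822710-49829507 and Tac1 chr6:7555061-7562978. Sst spans chr16:23889573-23891342, Adcyap1 chr17:93198245-93206541, Gal chr19:3409915-3414544, Vgf chr5:137025301-137033351 and Scg2 chr1:79434366-79440026. Divided by the merged exon length of each gene, the order of levels was nearly the same in both conditions. Scg2 and Penk stood at the top, with 1916 and 1208 scaled counts per kb in LW eyes and 1753 and 1416 in SC eyes. Cartpt followed with 722 scaled counts per kb in LW eyes and 483 in SC eyes, and Npy with 648 in LW eyes and 634 in SC eyes, so that these neighbours changed places between the conditions. Vgf had 204 scaled counts per kb in LW eyes and 138 in SC eyes. Tac1, Sst and Vip lay between 38.2 and 58.0 scaled counts per kb in LW eyes and between 30.5 and 52.0 in SC eyes. Adcyap1 and Gal were the lowest, with 10.4 and 9.36 in LW eyes and 9.19 and 8.28 in SC eyes.

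Many peptide precursor genes are known to carry a cAMP-responsive element, the binding site of the transcription factor CREB, close to the start of transcription. RefSeq promoter windows of GRCm38.p6 were at hand for 8 of the 10 members, not for Vgf and Penk. In the 250 bases before the start, the palindrome TGACGTCA was found in 3 members, Cartpt, Scg2 and Sst, and in 1.55% of 32817 promoter windows of the same length. The half-element TGACG on either strand, which also lies within the palindrome, was found in 6 members (Vip, Tac1 and Adcyap1 besides those 3) and in 17.8% of all windows. An E-box (CACGTG), the element bound by clock proteins, was found in 1 member, Tac1, and in 6.02% of all windows. The stretches around the match are shown for the 3 palindromes and for Vip, to place the element in the gene, with the matching letters in capitals and each sequence on the strand of its gene.
Cartpt, chr13:99900773-99900810, minus strand, match starting 112 bases before the start: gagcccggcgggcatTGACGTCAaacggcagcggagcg
Scg2, chr1:79440072-79440109, minus strand, match starting 68 bases before the start: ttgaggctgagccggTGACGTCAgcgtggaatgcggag
Sst, chr16:23890870-23890907, minus strand, match starting 48 bases before the start: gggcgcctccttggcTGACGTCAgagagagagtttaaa
Vip, chr10:5639124-5639158, plus strand, match starting 79 bases before the start: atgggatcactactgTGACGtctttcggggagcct
Distances count from the transcript start used for each promoter window. For Cartpt and Sst that start and the stretch shown lie within the gene span given above. These matches describe letters only, and no binding was measured.

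Between the seasons, 5 of the 10 members passed the test (limma, Benjamini-Hochberg adjusted p under 0.05 over 18233 genes). Cartpt, Vgf, Vip and Scg2 were higher in LW eyes and Penk was lower, while Npy, Tac1, Sst, Adcyap1 and Gal did not pass. Over all genes tested, 4.84% were higher and 4.65% were lower in LW. The median log2 difference, LW minus SC, was 0.19 over the 10 members and 0.00 over all genes tested. The members were chosen with earlier results of these data known, so this contrast with all genes is only a description.

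**Figure D1:**
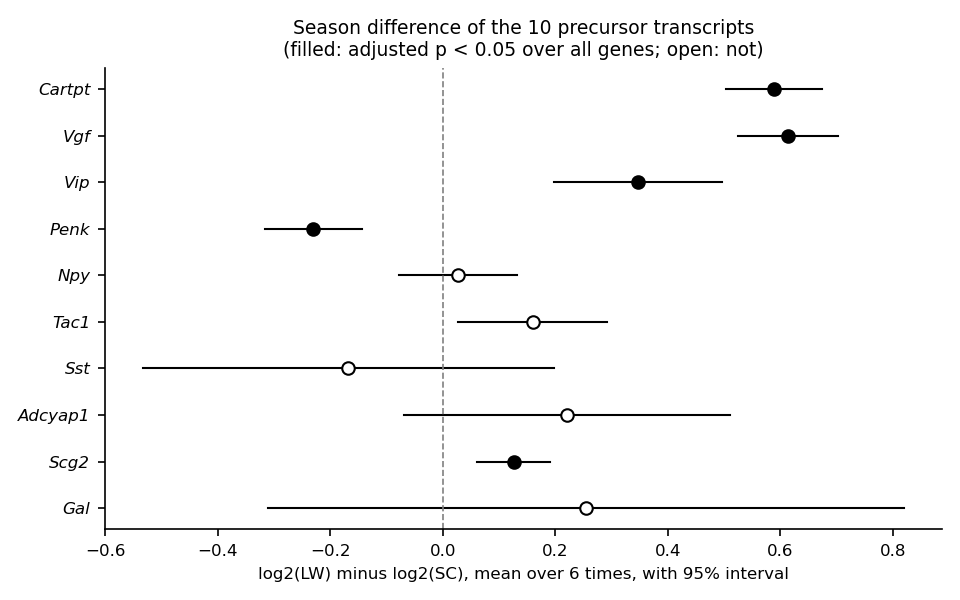
Difference on the log2 scale between LW and SC eyes, averaged over the 6 times, for each of the 10 members (points, with 95% intervals from limma as lines; filled points passed the test over all genes). Vgf (0.61) and Cartpt (0.59) lie farthest to the right, Penk (-0.23) is the filled point left of 0, and the intervals of Sst, Adcyap1 and Gal are the widest.

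Cartpt makes the CART peptides, which in mouse retina mark a set of direction-selective ganglion cells and some amacrine cells. Its scaled count ran from 817 to 1001 in the 12 LW eyes (median 939), against 437 to 750 in the 12 SC eyes (median 635). Every LW eye was above every SC eye. Such separation of all 12 LW from all 12 SC eyes, in either direction, was seen in 0.0768% of the genes tested, and Cartpt was the 1 member that showed it. Mean levels were 922 ± 55.9 in LW and 617 ± 80.5 in SC (SD, n = 12 each), a log2 difference of 0.59 (95% interval 0.50 to 0.67, adjusted p = 2.7e-09 from limma). Of the lens fibre markers, 4 of 6 were higher in LW too, with sums of 800733 to 920748 in LW eyes and 712695 to 885530 in SC eyes, and their part in the Cartpt difference was not tested.

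Vgf encodes a secreted granin-like precursor, first known as a gene induced by nerve growth factor, that is cut into several peptides. It ran from 319 to 851 in LW eyes (median 683), against 203 to 663 in SC eyes (median 392). The ranges overlapped because the level moved strongly over the day, yet at each of the 6 times both LW eyes were above both SC eyes. How many of all genes tested showed such separation time by time was not counted. The means were 606 ± 190 in LW and 409 ± 172 in SC (SD, n = 12 each), and the log2 difference was 0.61 (95% interval 0.52 to 0.70, adjusted p = 2.7e-09 from limma). These means took in 8 lit eyes in LW and 4 lit eyes in SC, and Vgf was higher with lights on within each condition, as given below. The part of this imbalance in the mean difference was not tested. Of the rod markers, 3 of 7 were higher in LW too, with sums of 802415 to 999052 in LW eyes and 795276 to 929218 in SC eyes, and their part in the Vgf difference was not tested.

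Vip encodes vasoactive intestinal peptide, which marks classes of wide-field amacrine cells. Scaled counts ran from 90.4 to 161 in LW eyes (median 131), against 61.8 to 137 in SC eyes (median 107). The groups overlapped, with 6 LW eyes above every SC eye, and both LW eyes were above both SC eyes at 5 of the 6 times. The share of all genes with that pattern was not counted. With means of 130 ± 24.3 in LW and 104 ± 26.8 in SC (SD, n = 12 each), the log2 difference was 0.35 (95% interval 0.20 to 0.50, adjusted p = 0.0037 from limma). Without the 4 eyes of 2 h it was 0.26 and did not pass (adjusted p = 0.070). Autonomic neurons that supply the eye also make this peptide. Of the 4 of their markers that were tested, 1 (Ecel1) was higher in LW, and the 4 summed to between 125 and 191 in LW eyes and between 114 and 164 in SC eyes. The part of these cells in the Vip difference was not tested.

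Penk, the proenkephalin gene, encodes the opioid enkephalins, found in amacrine cells of the inner retina. It was the member that fell, with 1617 to 2315 scaled counts in LW eyes (median 1979), against 1982 to 2729 in SC eyes (median 2211). Of the 12 LW eyes 6 were below every SC eye, and 5 SC eyes were above every LW eye. Both LW eyes lay below both SC eyes at 5 of the 6 times, a pattern whose share over all genes was not counted. Means were 1974 ± 213 in LW and 2314 ± 243 in SC (SD, n = 12 each), a log2 difference of -0.23 (95% interval -0.32 to -0.14, adjusted p = 0.0015 from limma). Of the markers of the corneal and pigment epithelium, 5 of 6 and 3 of 6 were lower in LW too. Summed corneal markers lay between 210211 and 306706 in LW eyes and between 279837 and 330150 in SC eyes, and summed pigment epithelium markers between 26218 and 30482 in LW eyes and between 29393 and 32953 in SC eyes. The part of these tissues in the Penk difference was not tested.

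Scg2 encodes secretogranin II, a granin of dense-core granules and the precursor of secretoneurin. It ran from 3658 to 5648 in LW eyes (median 4892), against 3657 to 5179 in SC eyes (median 4336). The ranges nearly coincided, with 3 LW eyes above every SC eye. The log2 difference was 0.13 (95% interval 0.06 to 0.19, adjusted p = 0.013 from limma), or 1.09-fold, with means of 4818 ± 585 in LW and 4410 ± 495 in SC (SD, n = 12 each). It did not pass without the eyes of 10 h (0.10, adjusted p = 0.086), without the eyes of 22 h (0.10, adjusted p = 0.096), or when libraries were scaled to the summed amacrine markers in place of all genes (0.08, adjusted p = 0.12), a scaling chosen after the data were seen.

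With that amacrine scaling, which moved the median of all genes to -0.05, Cartpt, Vgf, Vip and Penk kept their calls, at 0.54, 0.57, 0.30 and -0.28. With scaling to ganglion cell markers, also chosen after the data were seen, all 5 calls held, at 0.57 for Cartpt, 0.59 for Vgf, 0.33 for Vip, -0.25 for Penk and 0.11 for Scg2.

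The other 5 members had season differences that did not pass. Tac1 encodes the tachykinins substance P and neurokinin A. It had 164 to 228 scaled counts in LW eyes (median 201), against 149 to 221 in SC eyes (median 175), and its mean was higher in LW at all 6 times, with a log2 difference of 0.16 (95% interval 0.03 to 0.29, adjusted p = 0.12 from limma). Npy, the neuropeptide Y gene of amacrine cells and of sympathetic nerve fibres, had 247 to 437 in LW eyes (median 383), against 261 to 433 in SC eyes (median 376), and a log2 difference of 0.03 (95% interval -0.08 to 0.13). The 2 conditions overlapped almost wholly in Npy, and the LW mean was higher at 3 of the 6 times.

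Sst, Adcyap1 and Gal were measured with far fewer counts. Sst, the somatostatin gene, had 14.8 to 49.2 scaled counts in LW eyes, against 16.9 to 56.4 in SC eyes, and a log2 difference of -0.17 (95% interval -0.53 to 0.20). Adcyap1 encodes PACAP, the co-transmitter of the light-sensing ganglion cells that project to the clock, and had 26.3 to 58.4 in LW eyes, against 17.6 to 59.3 in SC eyes, with a log2 difference of 0.22 (95% interval -0.07 to 0.51). Gal, the galanin gene, had 2.96 to 12.1 in LW eyes, against 0.888 to 13.0 in SC eyes, with a log2 difference of 0.25 (95% interval -0.31 to 0.82). At these levels the intervals of Adcyap1 and Gal still allow a rise in LW as large as that of Vip, and the interval of Sst a fall of that size. A value of 1 was added before taking logarithms, which shrinks the change of low genes such as Gal.

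**Figure D2:**
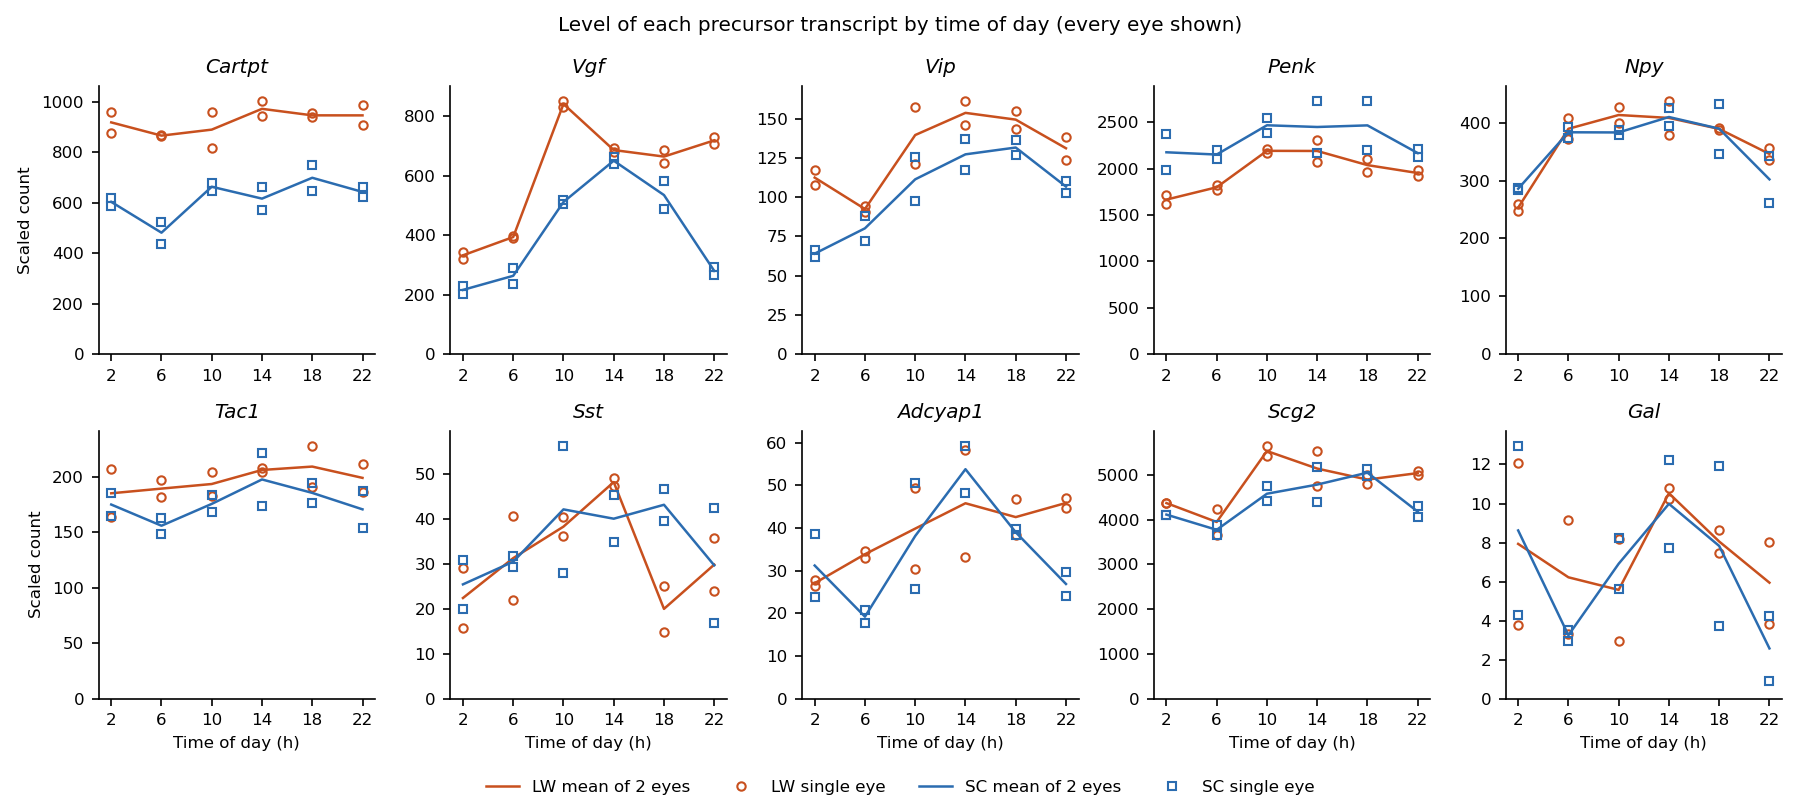
Scaled count (vertical axis, from 0) of each of the 10 members against time of day in hours, with every LW eye (circles) and SC eye (squares) and lines through the means of 2 eyes. The Cartpt lines stay apart at all times, the Vgf lines almost meet at 14 h (687 in LW and 651 in SC) and are widest apart at 22 h (719 in LW and 280 in SC), and the Npy lines run together.

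At single times, each with 2 LW and 2 SC eyes, up to 4 members passed. Cartpt passed at 5 of the 6 times. Its eyes had 866 and 864 scaled counts in LW against 524 and 437 in SC at 6 h, the widest gap (log2 difference 0.85, adjusted p = 1.1e-04 from limma), and 960 and 817 in LW against 679 and 646 in SC at 10 h, the narrowest and the time that did not pass (0.42, adjusted p = 0.067). The calls of 14, 18 and 22 h rested on the 2 eyes of each condition. Leaving out 1 eye, Cartpt did not pass at 14 h without either LW eye or without the second SC eye (adjusted p = 0.051 to 0.080), at 18 h without any 1 of the 4 eyes (0.050 to 0.21), and at 22 h without the second LW or the first SC eye (0.054 and 0.061). The low SC eye of 6 h with 437 was the library with the most Alb. Whether its liver transcripts bear on that value was not tested.

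Vgf showed the largest difference of any member at a single time. At 22 h, when lights were off in both rooms, it had 732 and 706 scaled counts in LW eyes against 266 and 294 in SC eyes, a log2 difference of 1.36 (95% interval 1.14 to 1.58, adjusted p = 2.4e-08 from limma). At 14 h, when lights were on in both rooms, it had 692 and 681 in LW eyes against 663 and 639 in SC eyes, a log2 difference of 0.08 (95% interval -0.14 to 0.29). At 10 h the LW eyes, with 832 and 851, were far above the SC eyes, with 504 and 519 (0.72, adjusted p = 9.2e-04). At a shared hour the rooms still differed in the time since lights had gone on or off. The last lit sample before 22 h was that of 18 h in LW and of 14 h in SC. The first lit sample of the day was that of 6 h in LW and of 10 h in SC. The part of this in the Vgf differences was not tested. Vgf also passed at 2 h (0.62, adjusted p = 0.0013) and at 6 h (0.59, adjusted p = 0.0050), and not at 18 h (0.32, adjusted p = 0.14). The call of 6 h was lost without the second SC eye, the library with the most Alb (0.44, adjusted p = 0.057).

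Vip and Penk passed at 2 h alone among single times. Vip had 117 and 108 scaled counts in LW eyes against 61.8 and 66.3 in SC eyes (log2 difference 0.80, adjusted p = 0.012 from limma), and Penk had 1717 and 1617 in LW eyes against 1982 and 2373 in SC eyes (-0.38, adjusted p = 0.042). The Vip call was lost whenever any 1 of the 4 eyes of 2 h was left out, with adjusted p between 0.057 and 0.11. Leaving out the second SC eye of 2 h, with 2373, took the Penk difference to -0.24 (adjusted p = 0.35), and the Penk call was lost in 14 of 34 alternative analyses. Scg2 came near the threshold at 22 h, with 5000 and 5073 in LW eyes against 4291 and 4059 in SC eyes (0.27, adjusted p = 0.058).

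Counted by time, 4 members passed at 2 h (Cartpt, Vgf, Vip and Penk), where 3.64% of all genes tested passed, and 2 at 6 h (Cartpt and Vgf), where 2.80% passed. Vgf passed at 10 h, where 0.510% of all genes did, and Cartpt at 14 h, where 0.176% did. Cartpt passed at 18 h, against 1.56% of all genes, and Cartpt and Vgf passed at 22 h, against 2.91%. The mean difference had 1 sign at all 6 times in Cartpt, Vgf, Vip, Penk and Tac1, as it had in 8.86% of the genes tested.

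**Figure D3:**
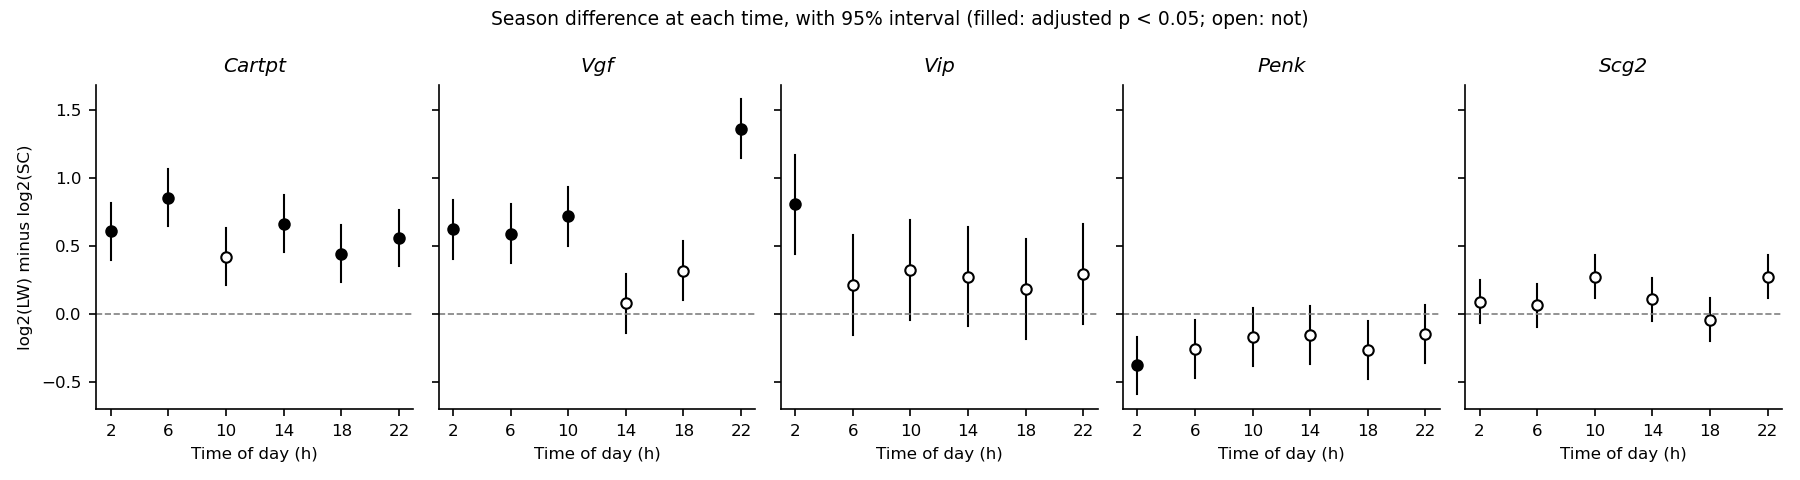
Log2 difference of LW minus SC at each time of day (points with 95% intervals from limma, 2 eyes per condition; filled points passed over all genes) for the 5 members that passed in the mean over times. Cartpt lies between 0.42 and 0.85, Vgf between 0.08 at 14 h and 1.36 at 22 h, and Penk below 0 at every time.

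Whether the season difference changed with the time of day was tested over the 6 times together. Vgf alone of the 10 members passed (adjusted p = 2.1e-04 from limma), where 4.98% of all genes tested did. Scg2 had an unadjusted p = 0.049 and an adjusted p = 0.27, and the adjusted p of the other members lay between 0.30 and 0.97. A narrower question was whether the difference was another at 6 and 18 h, when only the LW eyes were lit, than at the other times, when both conditions were lit or both dark. None of the 10 members passed that test with limma or with limma voom, where 1.19% of all genes passed with limma, and 2 had an unadjusted p under 0.05. These were Vgf (-0.24, adjusted p = 0.24) and Scg2 (-0.18, adjusted p = 0.25), with smaller LW-over-SC differences at 6 and 18 h.

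Within LW, the level changed over the day in 5 of the 10 members, Vgf, Scg2, Npy, Vip and Penk, where 19.0% of all genes tested did. Vgf moved most. Its 2 LW eyes had 345 and 319 scaled counts at 2 h, 390 and 398 at 6 h, 832 and 851 at 10 h, 692 and 681 at 14 h, 644 and 686 at 18 h, and 732 and 706 at 22 h. The mean of 10 h was 2.53 times that of 2 h (adjusted p = 7.5e-09 from limma), and the level stayed high through the dark sample of 22 h. Npy was lowest at 2 h, with 259 and 247, and highest at 10 h, with 399 and 428 (adjusted p = 0.0015). Scg2 was lowest at 6 h, with 3658 and 4232, and highest at 10 h, with 5411 and 5648 (adjusted p = 7.3e-04).

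The remaining daily changes within LW were weaker. Vip had 90.4 and 94.7 scaled counts at 6 h and 161 and 146 at 14 h (adjusted p = 0.025 from limma). Penk had 1717 and 1617 at 2 h and 2174 and 2212 at 10 h (adjusted p = 0.032). Both were lost on leaving out some single LW eyes, with adjusted p up to 0.12 for Vip without the first eye of 6 h and up to 0.13 for Penk without the second eye of 2 h. The Penk call was also lost with limma voom on all eyes (adjusted p = 0.0502). Cartpt did not pass, with a highest time mean only 1.12 times its lowest (adjusted p = 0.71).

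Within SC, 5 members changed over the day, Vgf, Vip, Scg2, Cartpt and Npy, where 10.7% of all genes tested did. Vgf had 228 and 203 scaled counts at 2 h, 290 and 236 at 6 h, 504 and 519 at 10 h, 663 and 639 at 14 h, 489 and 581 at 18 h, and 266 and 294 at 22 h (adjusted p = 3.6e-10 from limma). It was thus highest at 14 h, 3.02 times the level of 2 h, and was back near its lowest level by 22 h. Vip had 61.8 and 66.3 at 2 h and 127 and 137 at 18 h (adjusted p = 0.0013). Scg2 had 3882 and 3657 at 6 h and 4962 and 5131 at 18 h (adjusted p = 0.0045), and Npy had 287 and 284 at 2 h and 426 and 394 at 14 h (adjusted p = 0.014). The Npy call was lost without the first or the second eye of 2 h (adjusted p = 0.050 and 0.052).

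Cartpt in SC was lowest at 6 h, with 524 and 437, and highest at 18 h, with 646 and 750 (adjusted p = 0.0091 from limma). This call rested on the second eye of 6 h, the library with the most Alb, and without it the adjusted p was 0.17. Penk did not pass within SC (adjusted p = 0.36). Adcyap1 had 20.8 and 17.6 at 6 h and 59.3 and 48.3 at 14 h, with an adjusted p of 0.069. Of the members changing within either condition, Vgf, Scg2, Npy and Vip passed in both. For all of these but Vgf a difference between the daily patterns of LW and SC was not shown, as the test over the 6 times did not pass.

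Eyes collected with lights on were then set against those collected with lights off within each condition, a contrast in which light and time of day cannot be told apart. Within LW, Vgf and Npy were higher with lights on and no member was lower, against 5.08% of all genes higher and 5.75% lower. Npy had 372 to 437 scaled counts in the 8 lit LW eyes (median 395), against 247 to 356 in the 4 dark ones (median 298), so that lit and dark eyes did not overlap (log2 difference 0.43, adjusted p = 4.6e-04 from limma). How many of all genes tested showed no overlap of lit and dark LW eyes was not counted. Vgf had 390 to 851 in lit LW eyes (median 683), against 319 to 732 in dark ones (median 526), and here the dark eyes fell into low values at 2 h and high values at 22 h (0.35, adjusted p = 7.1e-04). The lit eyes were split as well. Those of 6 h, with 390 and 398, lay far below the dark eyes of 22 h, with 732 and 706. Of the lit LW eyes only those of 10 h, with 832 and 851, lay above both dark eyes of 22 h.

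Within SC, Vgf and Vip were higher with lights on and no member was lower, against 3.97% of all genes higher and 3.67% lower. Vgf had 504 to 663 in the 4 lit SC eyes (median 579), against 203 to 581 in the 8 dark ones (median 278), and among the dark ones only the eyes of 18 h, with 489 and 581, came near or into the lit range (0.93, adjusted p = 9.9e-10 from limma). Vip had 97.5 to 137 in lit SC eyes (median 122), against 61.8 to 137 in dark ones (median 95.6), with full overlap at the upper end (0.36, adjusted p = 0.042). The Vip call was lost in 12 of 34 alternative analyses, 10 of which left out 1 eye. Npy missed the threshold within SC (0.24, adjusted p = 0.057). Whether the lights-on difference itself differed between LW and SC was not tested apart from the test over the 6 times.

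**Figure D4:**
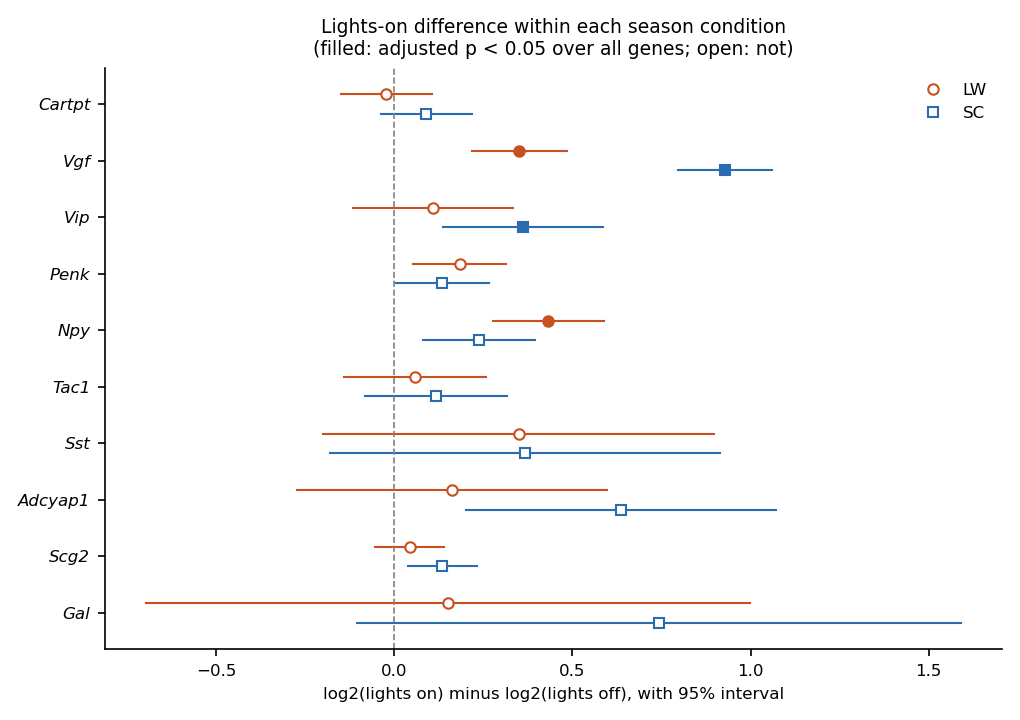
Log2 difference of lights on minus lights off for each of the 10 members, within LW (circles, upper row of each pair) and within SC (squares, lower row), with 95% intervals from limma; filled symbols passed over all genes. Vgf passes in LW (0.35) and in SC (0.93), Npy in LW (0.43) and Vip in SC (0.36), and Cartpt lies at -0.02 in LW and 0.09 in SC.

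Other genes of the peptide system were read against the shares over all genes tested, which were 4.84% higher and 4.65% lower in LW between the seasons, and 19.0% in LW and 10.7% in SC for a change over the day. Of 28 other neuropeptide precursors that could be tested, 2 were higher in LW and none was lower, with a median log2 difference of 0.05. These were Nmb, the neuromedin B precursor, with 248 ± 32.3 scaled counts in LW and 218 ± 19.4 in SC (SD, n = 12 each; log2 difference 0.18, adjusted p = 0.045 from limma), and Nppb, which encodes brain natriuretic peptide, with 6.19 ± 3.63 in LW and 2.46 ± 2.57 in SC (1.24, adjusted p = 0.035). Nppb was near the floor, with a median of 5.95 in LW and 1.82 in SC and a lowest value of 0 in each condition. With limma voom Nppb passed (adjusted p = 0.038) and Nmb did not (adjusted p = 0.055). None of these 28 changed over the day by limma or limma voom, and 3 in LW and 1 in SC had an unadjusted p under 0.05.

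Among 9 other granins and granule proteins 1 was lower and none was higher in LW. It was Cadps2, a priming factor of dense-core granule release, with 227 ± 28.5 scaled counts in LW and 267 ± 39.7 in SC (SD, n = 12 each; log2 difference -0.23, adjusted p = 0.038 from limma). Chga (chromogranin A), Cadps and Pcsk1n (proSAAS, an inhibitor of prohormone convertase) changed over the day in LW, and Pcsk1n also in SC. Pcsk1n was, beside Vgf, a granule gene whose season difference changed with the time of day (adjusted p = 0.0014 from limma).

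Of the 7 enzymes that process precursors, none passed between the seasons by limma or limma voom, and 2 had an unadjusted p under 0.05. Cpd, a carboxypeptidase, changed over the day in both LW (adjusted p = 0.035 from limma) and SC (adjusted p = 0.039), and Qpct, which forms the N-terminal pyroglutamate of peptides, changed in SC (adjusted p = 0.022). The season difference of Cpd also varied with the time of day (adjusted p = 0.025). Of 21 receptors of the member peptides, 2 were higher in LW and none was lower, against 4.84% higher and 4.65% lower over all genes tested. Tacr1, the substance P receptor, had 487 ± 52.0 scaled counts in LW and 439 ± 23.9 in SC (SD, n = 12 each; log2 difference 0.14, adjusted p = 0.032), and Tacr3, the neurokinin B receptor, had 569 ± 47.4 in LW and 508 ± 37.7 in SC (0.16, adjusted p = 0.029). Tacr3 was listed as a tachykinin receptor, and neurokinin B is not among the peptides named above for Tac1. The VIP receptor gene Vipr1 changed over the day within SC (adjusted p = 0.044), a call that limma voom did not give.

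Over the 24 libraries, members varied together to different degrees, which is described here without a test because all values come from the same libraries and share their season and time. Pearson's r of log2 levels was 0.83 between Vgf and Vip, 0.83 between Vgf and Scg2, and 0.75 between Vip and Scg2. Cartpt had r = 0.60 with Vgf and 0.61 with Vip, and Penk had r = -0.41 with Cartpt. Npy had r = 0.64 with Vgf and 0.07 with Cartpt.

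The genes whose levels ran most alike with each member, among 14038 genes with a mean scaled count of at least 50, were found in the same way. For Cartpt they were Crygs (r = 0.86), Zfp365 and Serpina3n. Crygs is a lens crystallin. For Vgf they were Sag, the rod arrestin (r = 0.93), and Hnrnph3. Vip ran with Mtfr1 (r = 0.86), Elmo1 and Slco1c1, and Scg2 with Slc24a4 (r = 0.93), Slco1c1 and Mpp4. For Penk the nearest were Cst3 (r = 0.91), Gpx3 and Prodh, and for Npy Rrs1 (r = 0.87), Car3 and Guca1b. The nearest genes of Tac1 (Gabra2 and Exd2), Sst (Usp4, C1qbp and Gnl2) and Adcyap1 (Rabggtb, Sv2b and Them6) had r of at most 0.79, and Gal was too low for this comparison.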

How the data were processed

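Whole-eye RNA was sequenced by the authors as stranded, paired 100-bp mRNA libraries. They filtered reads with SOAPnuke, mapped them with HISAT2 (2.0.4 in the submitters' processing notes, build GRCm38.p6) and estimated gene counts with RSEM. The deposited values are these estimated (expected) counts. In 43565 cells the deposited table has no number, and these cells were read as 0. Cells with no number made up 8.90% to 10.3% of the genes of a library.

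Members were found by gene symbol. The members and lists were chosen with earlier results of these data known. Libraries were scaled by the trimmed mean of M-values (TMM, trims of 30% and 5%, factors 0.982 to 1.02), and 18233 genes that reached a scaled count of 1 in 2 or more libraries were kept. The log2 of the scaled count plus 1 was fitted with limma 3.58.1 (trend and robust; R 4.3.3) with 12 group means (2 eyes each), so that all groups share 1 estimate of the spread (12 residual degrees of freedom). P-values were adjusted by Benjamini-Hochberg over all genes tested, with a threshold of 0.05, and fold changes are on the log2(value + 1) scale. The test was checked on simulated counts. All 10 members are named. Of the other peptide lists, genes that passed between seasons are named, with at most 3 per list for daily changes, and the 3 genes most like each member with a mean of at least 10 are named, except that some items are not reported here. Gene positions and promoters are from RefSeq (GRCm38.p6), and exon lengths from GENCODE. Figures were drawn with matplotlib 3.10.9. Alternatives were other scalings, pseudocounts of 0.5 and 4, other filters, limma voom, a replicate block, and leaving out eyes, times or the 2 libraries with liver transcripts. Planned count-model tests were not run because the table holds cells with no number.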

Additional observations from a re-analysis of the deposited data

Results flagged for a closer look

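Vgf stood out because its difference between LW and SC eyes was not the same at all 6 times (adjusted p = 2.1e-04 from limma, F test over the times, 2 eyes per time and condition). The adjusted p lay between 8.8e-05 and 0.0027 over 34 alternative analyses. The log2 difference, LW minus SC, was smallest at 14 h (0.08) and largest at 22 h (1.36), and the mean was higher in LW at all 6 times.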

How the results depend on the processing

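The season calls of Cartpt, Vgf and Penk held under all 42 alternatives, with log2 differences of 0.54 to 0.62 for Cartpt, 0.46 to 0.72 for Vgf and -0.28 to -0.20 for Penk. Genes passing over the season numbered 1730, 950 without the eyes of 2 h and 2749 with scaling to amacrine cell markers. Without the eyes of 2 h Vip was 0.26. Scg2 was 0.098 when the 10 h eyes were left out, 0.097 when the 22 h eyes were, and 0.079 with amacrine scaling. Npy, near 0, was -0.0092 without the eyes of 22 h and -0.020 with amacrine scaling, and it lay between -0.0055 (without the first SC eye of 22 h) and 0.059 on leaving out 1 eye. Sst was 0.023 without the eyes of 18 h. The cause was not tested.

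Leaving out 1 eye at a time, members passing numbered 2 to 4 at 2 h, 1 to 2 at 6 h, 1 to 2 at 10 h, 0 to 1 at 14 h, 0 to 1 at 18 h, 1 to 3 at 22 h, 3 to 5 over the day in LW and 1 to 2 for lights in SC. Genes passing then fell to as few as 128 of 663 at 2 h, 92 of 510 at 6 h, 24 of 93 at 10 h, 0 of 32 at 14 h, 50 of 284 at 18 h, 131 of 531 at 22 h, 78 of 217 for 6 and 18 h against the other times, 1117 of 1974 for lights in LW and 894 of 1393 for lights in SC. With a filter of 10 counts, 2 members passed at 10 h. Without the 2 SC libraries holding liver transcripts, 1 member passed at 6 h, and genes passing fell to 338 of 510 at 6 h, 33 of 93 at 10 h, 130 of 217 at 6 and 18 h against the other times, 1208 of 1960 over the day in SC and 699 of 1393 for lights in SC. With limma voom, 1 member passed for lights in SC.

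Deviations of same-numbered LW and SC eyes of a time correlated at -0.13 to -0.04, which gave no sign of pairing within a time. Over all 66 pairs of groups the correlations lay between -0.17 and 0.25. Whether same-numbered eyes of different times shared a batch was not tested. With a replicate block, 1 member passed for lights in SC (Vip adjusted p = 0.0501), Penk at 2 h did not pass (adjusted p = 0.051) and Scg2 at 22 h did (adjusted p = 0.038). The 2 eyes per group limit every single-time call, and the low counts of Gal, Sst and Adcyap1 limit theirs. The planned count models (edgeR, DESeq2) were not run.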
